A study of Mus musculus with 12 samples.

Results

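The interaction of LPS and 3′SL was examined in bone marrow–derived macrophages (BMDMs), as the difference between the change by 3′SL beside LPS and the change by 3′SL without LPS. All 12 RNA-Seq libraries of the series enter it, 3 for each of 4 conditions: PBS, 3′SL (labelled HMO), LPS, and LPS + 3′SL (labelled LPS+HMO). Incubation lasted 6 h, at 10 ng/mL for LPS and 100 μg/mL for 3′SL, alone or together. The labels give all 12 libraries as mouse macrophages with no strain, sex, age, donor, or culture, and their treatment text describes injected mice rather than these incubations, so p-values measure the spread between these libraries, which may be technical. For each gene the interaction is written on the log2 scale as (LPS + 3′SL − LPS) − (3′SL − PBS). A negative value means that 3′SL lowered a gene more, or raised it less, in the presence of LPS, and a value near 0 means that 3′SL moved it alike in both settings.

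LPS, the glycolipid that coats gram-negative bacteria, is bound by TLR4 together with CD14 and MD-2 and signals through NF-κB, MAP kinases, and interferon regulatory factors. Within hours macrophages then transcribe cytokines, chemokines, and the feedback inhibitors that end the response, while genes of proliferation and of sterol synthesis are repressed. 3′SL, 3′-sialyllactose, is a trisaccharide of human milk in which sialic acid is linked to lactose.

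Between 20411741 and 26851890 reads per library were counted on genes. Macrophage markers summed to 17890 to 28680 CPM (counts scaled to TMM-adjusted library size, the unit of all levels given here), and 10 of 10 were detected, with Adgre1, Csf1r, Cd68, and Lyz2 among them. Stromal markers such as Col1a1 and Sparc summed to 45.0 to 1161 CPM and neutrophil markers such as S100a9 and Ngp to 141 to 1027 CPM. Dendritic, mast cell, lymphoid, and erythroid markers stayed at 18.5 CPM or less in sum. Cd3e, Fcer1a, Hba-a1, and Hbb-bs were at 0 counts in every library. After the condition means were removed, residuals of the libraries correlated in 3 sets of 4 (0.382 to 0.702 within a set, at most 0.00895 between sets). Each set is a run of consecutive library numbers in the labels and holds 1 library of each condition. The labels do not say what a set is. Levels are listed in the order of sets 1, 2, and 3.

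Of the 18 function lists, cytokines and NF-κB genes had the lowest median interactions. The median interaction was -1.08 for 32 cytokines and mediators and -0.835 for 23 NF-κB genes, against -0.003 for all genes, with negative medians beside LPS and positive ones without. ER chaperone genes had a median of -0.0535, and 11 of 30 rose beside LPS (0.685% of all genes did) and 14 without (1.98% did). Cholesterol synthesis genes had 0.333, with 13 of 20 called higher beside LPS, where 0.685% of all genes were.

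The sets decide how much of the interaction passes a test. In the fit with 1 mean per condition and no sets (edgeR, quasi-likelihood), 0 of 14308 genes were called for the interaction (0%). A call needs a change of 1.5-fold or more and an adjusted p below 0.05. The lowest adjusted p was 0.309, 872 genes had an unadjusted p under 0.05, and 567 of these passed the fold, 204 higher and 363 lower. In this fit 0 genes (0%) were called for either 3′SL comparison as well, while the unadjusted p was under 0.05 for 995 genes beside LPS and 1439 without LPS. Fitted without sets by DESeq2, 44 genes were called for the interaction, 8 higher and 36 lower, with 113 for 3′SL beside LPS, and 88 for 3′SL without LPS. With the sets as a block, edgeR called 222 genes, of which 184 were lower (1.29% of genes tested) and 38 higher (0.266%), and 38 of the 44 DESeq2 genes were among them. The block fit also called 207 genes for 3′SL beside LPS, 98 higher (0.685%) and 109 lower (0.762%), and 406 genes for 3′SL without LPS, 283 higher (1.98%) and 123 lower (0.86%). Values that follow are from the block fit unless stated, ± is the SE of the fit, and "called" refers to that fit.

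The split of the calls depends on the scaling and their number on single libraries. When libraries were scaled to total counts instead of TMM, the median interaction of all genes moved from -0.003 to 0.173, and 67 genes were then called higher and 69 lower. Leaving out 1 library at a time gave 157, 104, and 146 calls without the PBS libraries of sets 1 to 3, 96, 333, and 170 without the 3′SL libraries, 43, 24, and 263 without the LPS libraries, and 25, 39, and 133 without the LPS + 3′SL libraries. Without set 1 as a whole 1 gene was called, without set 2 0 (edgeR), and without set 3 457. The 48 genes called for the interaction and named here kept their sign with each of the 12 libraries left out in turn. In the same order of libraries, 40, 36, and 40 of them kept the call without PBS, 33, 48, and 42 without 3′SL, 24, 16, and 46 without LPS, and 17, 23, and 38 without LPS + 3′SL.

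**Figure D1:**
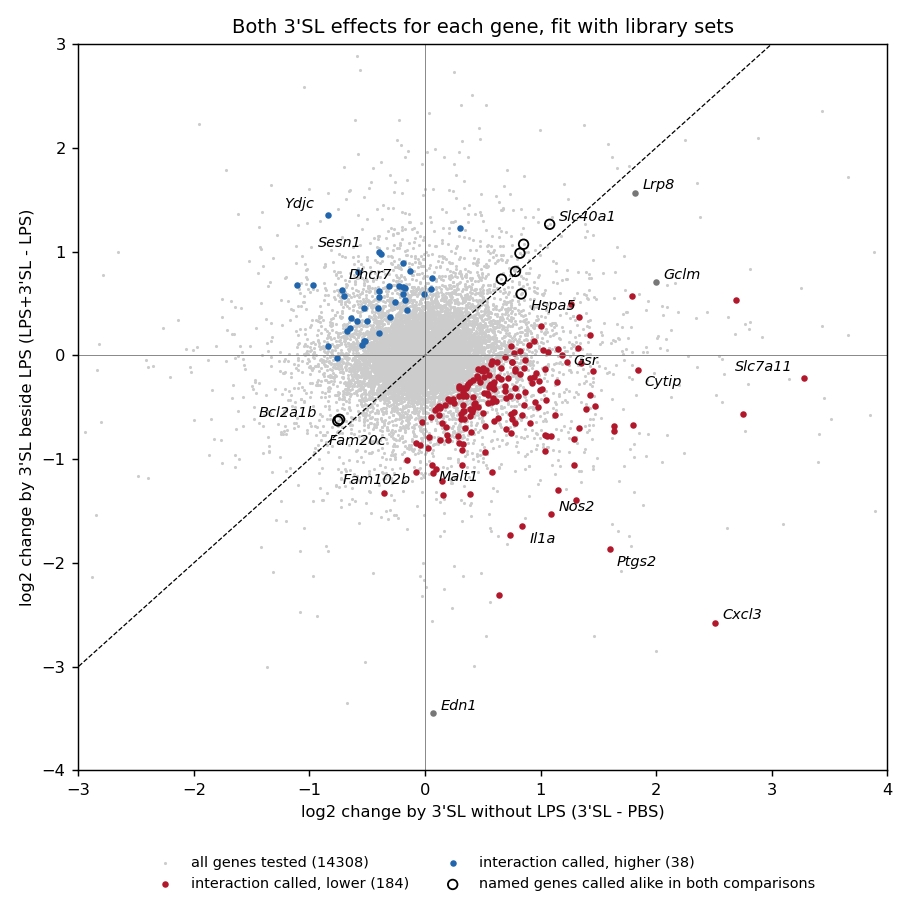
Each point is 1 of 14308 genes, with the log2 change by 3′SL without LPS on the x axis and beside LPS on the y axis, from the block fit (25 genes lie outside the axes). Genes on the dashed line have an interaction of 0; the 184 genes called lower lie under it and the 38 called higher over it, and open circles mark 8 named genes called in the same direction in both comparisons.

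Promoters of the gene lists were searched for known motifs. RefSeq promoters (GRCm38.p6, 250 bases before to 50 after a start) were at hand for 10089 of the genes tested and were searched on both strands for 5 motifs. The NF-κB motif GGGNNTTNCC was found for 6.54% of these genes, for 6 of 14 chemokines with a promoter (42.9%), for 9 of 18 NF-κB subunits and feedback inhibitors (50%), and for 5 of 24 cytokines and mediators (20.8%). The ER stress element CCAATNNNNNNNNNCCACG was found for 0.159% of genes and for 8 of 23 ER chaperones and processing genes (34.8%). The antioxidant response motif TGACNNNGC was found for 17.2% of genes and 7 of 12 NRF2 genes (58.3%), the interferon motif GAAANNGAAA for 4.09% and 14 of 23 interferon response genes (60.9%), and the sterol motif TCACNCCAC for 1.37% and 1 of 15 cholesterol synthesis genes (6.67%). The NF-κB motif was also found for 4 of 21 DNA replication genes (19%) and 3 of 14 LPS receptor and adaptor genes (21.4%). The DNA replication list had a positive median interaction. The same motif was found for 1 of 23 immediate early genes (4.35%) and 0 of 23 ER genes. The antioxidant response motif was found for 8 of 23 ER genes and 8 of 23 immediate early genes (34.8% each). For cytokines and mediators it was 2 of 24 (8.33%). Enrichment in a list was not tested. A match is a run of letters and not a measured binding site.

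Printed first are stretches upstream of 3 neighbouring CXC chemokine genes with negative interactions, 5′ to 3′ on the plus strand, with the NF-κB motif in capitals: chr5:90891139-90891218 for Cxcl1, chr5:90903767-90903846 for Cxcl2, and chr5:90785993-90786072 for Cxcl3. In each of the 3 the capital letters are the same, though the search left only those at N open. The promoters of Cxcl1 and Cxcl2 hold another match that does not overlap this one.
Cxcl1: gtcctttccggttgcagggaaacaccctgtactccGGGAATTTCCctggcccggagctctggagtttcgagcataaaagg
Cxcl2: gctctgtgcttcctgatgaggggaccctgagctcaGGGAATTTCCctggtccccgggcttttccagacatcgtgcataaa
Cxcl3: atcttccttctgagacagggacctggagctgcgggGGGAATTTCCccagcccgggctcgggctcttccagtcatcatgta

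For comparison, these are stretches upstream of 4 ER genes, a group with interactions near 0, also on the plus strand, with the ER stress element in capitals: chr2:34771990-34772078 for Hspa5, chr12:17266456-17266544 for Pdia6, chr14:118937792-118937880 for Dnajc3, and chr15:88819485-88819573 for Creld2, where the match is on the other strand. The search fixes both outer parts of the element, so every match has them, on the other strand for Creld2. The 9 bases between them differ.
Hspa5: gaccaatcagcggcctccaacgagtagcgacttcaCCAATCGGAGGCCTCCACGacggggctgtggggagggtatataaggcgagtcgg
Pdia6: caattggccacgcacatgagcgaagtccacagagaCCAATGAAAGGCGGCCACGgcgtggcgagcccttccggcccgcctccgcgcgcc
Dnajc3: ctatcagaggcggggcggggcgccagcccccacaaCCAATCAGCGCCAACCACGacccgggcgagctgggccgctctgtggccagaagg
Creld2: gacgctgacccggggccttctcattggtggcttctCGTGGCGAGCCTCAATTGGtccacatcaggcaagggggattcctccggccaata

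Inflammatory cytokines and mediators had the lowest median interaction of the 18 function lists. Of 32 genes tested, 31 were below 0, 25 of them in each of the 3 sets (78.1%, against 25.8% of all genes), and the median was -1.08 against -0.003 for all genes. With LPS all 32 were higher than with PBS, as were 6681 of 14308 genes tested. Whether the list differs from other genes that LPS raised was not tested. The block fit called 7 lower (1.29% of all genes were) and 0 higher. DESeq2 called 5, against 44 of all 14308 genes tested. Beside LPS the median change by 3′SL was -0.786 and 11 genes fell (0.762% of all genes did). Il6, Il12b, Il27, and Csf3 were among them. Without LPS the median change was 0.463 and 2 genes rose (1.98% of all genes did), Ptges and Clec4e. Set by set the median interaction was -1.18, -1.14, and -1.19.

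Il1a (ENSMUSG00000027399.1, chr2:129299610-129309972, minus strand), which encodes the alarmin IL-1α, was at 1.32, 2.28, and 2.39 CPM with PBS, 2.98, 1.75, and 6.56 with 3′SL, 1088, 1271, and 1760.0 with LPS, and 298, 336, and 793 with LPS + 3′SL. All 3 LPS + 3′SL libraries lay below the LPS libraries, while PBS and 3′SL libraries overlapped and the 3′SL library was higher in 2 of 3 sets. The log2 change by 3′SL was -1.65 ± 0.21 beside LPS (adjusted p = 0.00266) and 0.84 ± 0.29 without LPS (adjusted p = 0.109), and the interaction was -2.49 ± 0.36 (adjusted p = 0.011).

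Nos2, the inducible nitric oxide synthase, was at 0.546, 0.631, and 0.506 CPM with PBS, 1.005, 0.955, and 1.75 with 3′SL, 502, 642, and 1337 with LPS, and 156, 184, and 595 with LPS + 3′SL. LPS + 3′SL was lower than LPS within each set, though set 3 was high in both, and all 3′SL libraries lay above the PBS libraries at a level near 1 CPM. The interaction was -2.62 ± 0.44 (adjusted p = 0.0166), from -1.53 beside LPS and 1.09 without. Il1b, the other IL-1 cytokine, had an interaction of -2.45 ± 0.39 (adjusted p = 0.0153).

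Prostaglandin synthesis genes were both among the calls. Ptges, the inducible prostaglandin E synthase, was at 2.12, 2.03, and 4.15 CPM with PBS, 5.10, 2.67, and 9.78 with 3′SL, 224, 214, and 345 with LPS, and 137, 116, and 213 with LPS + 3′SL. It was called in both comparisons, in opposite directions: -0.77 ± 0.15 beside LPS (adjusted p = 0.0217) and 1.04 ± 0.20 without LPS (adjusted p = 0.0145). The 3′SL library exceeded the PBS library in each set, although the groups overlapped, and the LPS + 3′SL libraries all lay below the LPS libraries.

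Ptgs2, the inducible cyclooxygenase, was at 6.32, 1.75, and 3.07 CPM with PBS, 10.01, 3.70, and 26.5 with 3′SL, 403, 538, and 628 with LPS, and 92.8, 124, and 249 with LPS + 3′SL. The 3′SL library of set 3 stood highest without LPS, and the LPS + 3′SL libraries all lay below the LPS libraries. Its interaction of -3.47 ± 0.68 was called (adjusted p = 0.0307), but neither 3′SL change was, at adjusted p = 0.0545 beside LPS and 0.0969 without. The interaction was called with 3 of 12 libraries left out in turn and ranged from -4.42 to -2.81.

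Saa3, an acute phase protein of macrophages, had an interaction of -2.47 ± 0.42 (adjusted p = 0.0177), with -1.73 ± 0.28 beside LPS. Clec4e, which encodes the receptor Mincle, had an interaction of -2.35 ± 0.46 (adjusted p = 0.0308), with 1.29 ± 0.34 without LPS. Il6 and Tnf were not called for the interaction: Il6, at 0.287, 0.0351, and 0.135 CPM with PBS, 0.149, 0.159, and 0.437 with 3′SL, 66.9, 105, and 88.5 with LPS, and 9.41, 15.4, and 29.8 with LPS + 3′SL, had -2.94 ± 0.92 (adjusted p = 0.133) on few reads without LPS, and Tnf had -1.62 ± 0.68 (adjusted p = 0.251). F3, tissue factor, was the 1 gene of the list above 0.

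Chemokines had a median interaction of -0.565, 18 of 21 genes below 0, and 2 called lower (1.29% of all genes were), Cxcl3 and Cxcl1. Both attract neutrophils through CXCR2. DESeq2 called 1 of the 21 chemokines, against 44 of all 14308 genes tested. Cxcl3 was at 0.402, 0.175, and 0.675 CPM with PBS, 1.45, 0.199, and 6.64 with 3′SL, 74.4, 77.9, and 92.3 with LPS, and 11.2, 9.52, and 27.6 with LPS + 3′SL, on 14, 5, and 20 reads with PBS and 39, 5, and 167 with 3′SL. The LPS + 3′SL libraries all lay below the LPS libraries, and without LPS the groups overlapped, with the 3′SL library of set 3 far above the others. The change was -2.58 ± 0.41 beside LPS (adjusted p = 0.00856) and 2.51 ± 0.69 without (adjusted p = 0.0579), and the interaction was -5.09 ± 0.78 (adjusted p = 0.0141). Without the 3′SL library of set 3 it was -3.76, and the call held with 8 of 12 libraries left out in turn.

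Cxcl1 was at 0.603, 0.246, and 0.506 CPM with PBS, 0.893, 0.438, and 2.11 with 3′SL, 18.9, 15.5, and 11.97 with LPS, and 7.04, 5.52, and 5.15 with LPS + 3′SL and had an interaction of -2.70 ± 0.59 (adjusted p = 0.0447), called with 2 of 12 libraries left out in turn and at -1.78 without the 3′SL library of set 3. Cxcl2, with -3.36 ± 0.90, was not called (adjusted p = 0.0866). Of its 50-base words, 5.84% occur in other genes, Cxcl3 first. Multiply aligned reads were left out, so some reads may be missing from its count. Ccl3, the macrophage inflammatory chemokine MIP-1α, fell beside LPS by 1.14 on the log2 scale (adjusted p = 0.00502), had -0.27 without LPS, and was not called for the interaction (-0.87 ± 0.23, adjusted p = 0.0843).

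In the block fit, NF-κB subunits and feedback inhibitors had the largest share of genes called for the interaction among the 18 lists. DESeq2 called 0 of the 23. All 23 were below 0 for the interaction, 22 of them in each set (95.7%, against 25.8% of all genes), and the median was -0.835. Called lower were 9 (1.29% of all genes were): Malt1, Birc3, Irak3, Zc3h12a, Nfkbiz, Rel, Nfkb2, Traf1, and Tnip1. The list is broader than its name and holds the signaling proteins Malt1, Birc3, and Traf1, described below. Beside LPS the median change was -0.363 and 5 genes fell (0.762% of all genes did). Without LPS it was 0.328 and 2 genes rose (1.98% of all genes did). By set the median interaction was -0.778, -0.762, and -0.926. Rela, the p65 subunit, had -0.43 ± 0.11 (adjusted p = 0.0834) and Nfkbia, its main inhibitor, -0.84 ± 0.22 (adjusted p = 0.0861), and neither was called.

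**Figure D2:**
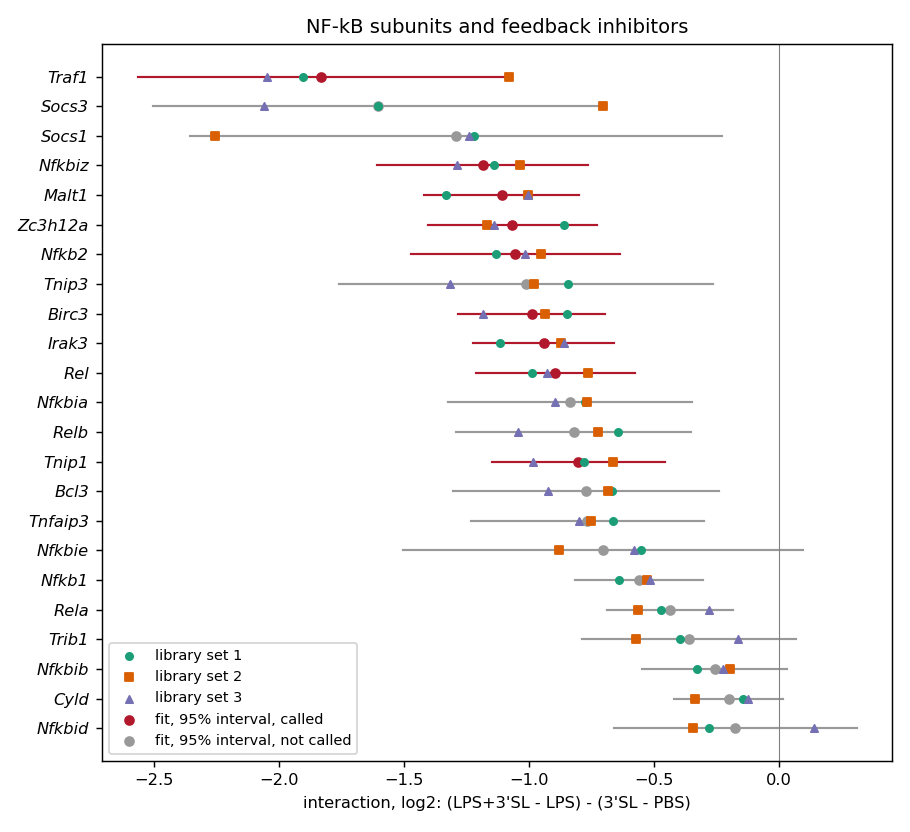
The interaction on the log2 scale (x axis) of the 23 NF-κB subunits and feedback inhibitors (rows), with the value from the block fit and its 95% interval in red for the 9 genes called lower and grey for the others; triangles, squares, and small circles are the values within each library set. All 23 fitted values lie below 0, and Nfkbid has 1 set above 0.

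Malt1, the paracaspase that cleaves negative regulators of NF-κB, was at 21.7, 29.2, and 29.95 CPM with PBS, 23.2, 26.3, and 34.99 with 3′SL, 399.6, 471, and 513 with LPS, and 170.1, 212, and 299 with LPS + 3′SL. LPS + 3′SL lay below LPS in every library, and PBS and 3′SL overlapped. The change was -1.05 ± 0.10 beside LPS (adjusted p = 0.000833) against 0.06 ± 0.10 without, giving an interaction of -1.11 ± 0.14 (adjusted p = 0.00804).

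Irak3, a kinase-like inhibitor of TLR signaling, had the same shape, with -0.82 ± 0.09 beside LPS, 0.13 ± 0.09 without, and an interaction of -0.94 ± 0.13 (adjusted p = 0.00946). Birc3, the ubiquitin ligase cIAP2, had the other shape. It was at 25.6, 24.7, and 30.6 CPM with PBS, 35.8, 38.8, and 58.6 with 3′SL, 195, 225, and 267 with LPS, and 152, 185, and 226 with LPS + 3′SL, so that all 3′SL libraries exceeded the PBS libraries while LPS and LPS + 3′SL overlapped. It rose without LPS by 0.69 ± 0.10 (adjusted p = 0.00459), had -0.30 ± 0.09 beside LPS (adjusted p = 0.139), and its interaction was -0.99 ± 0.13 (adjusted p = 0.00946).

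Rel, the c-Rel subunit, had -0.46 beside LPS and 0.43 without, both under 1.5-fold, and an interaction of -0.89 ± 0.15 (adjusted p = 0.0161). Nfkbiz, the inducible coactivator IκBζ, had -1.18 ± 0.19 (adjusted p = 0.0161), and Zc3h12a, the RNase Regnase-1 that degrades cytokine mRNAs, -1.07 ± 0.15 (adjusted p = 0.011). Traf1, an adaptor of TNF receptors, had the lowest value of the list, -1.83 ± 0.33 (adjusted p = 0.024). The calls of Nfkb2, Traf1, and Tnip1 held with 4, 5, and 6 of 12 libraries left out in turn.

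Immediate early factors and phosphatases had a median interaction of -0.568, with 22 of 28 genes below 0 and 3 called lower (1.29% of all genes were). DESeq2 called 0 of the 28. Without the 3′SL library of set 3 the median was -0.234. Fosl2, a subunit of AP-1, was called in opposite directions in the 2 comparisons, -0.64 ± 0.14 beside LPS and 0.59 ± 0.14 without, with an interaction of -1.23 ± 0.20 (adjusted p = 0.016). Klf6, a zinc finger factor, had -0.92 ± 0.17 (adjusted p = 0.0267). Ier3 rose without LPS (1.23 ± 0.20, adjusted p = 0.00956) and had -0.06 ± 0.18 beside LPS. Egr1 fell beside LPS by 1.25 on the log2 scale, had -0.40 without, and was not called for the interaction (adjusted p = 0.17).

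Over all genes, 3474 of 14308 tested had a negative fitted change beside LPS and a positive one without. The choice by a negative interaction favours this pattern. Of the 184 genes called lower, 162 had it, 16 were positive in both, and 6 were negative in both. Higher with LPS than with PBS were 179 of the 184, against 6681 of all 14308 genes. The interaction uses the same LPS and PBS libraries. All 23 NF-κB genes, 21 chemokines, and 30 interferon response genes tested were higher with LPS as well. Whether they differ from other genes that LPS raised was not tested. In 40 of the 184 the change by 3′SL was called beside LPS alone, in 72 without LPS alone, in 6 in both, and in 66 in neither. The 6 called in both are Ptges, Fosl2, Fas, Rbpms, Dusp16, and Bcl2a1a. Fas, a death receptor, was at 3.22, 3.54, and 3.17 CPM with PBS, 4.35, 5.45, and 7.67 with 3′SL, 62.9, 70.7, and 90.2 with LPS, and 37.8, 49.2, and 55.6 with LPS + 3′SL. LPS + 3′SL libraries lay below all LPS libraries and 3′SL libraries above all PBS libraries, with -0.65 ± 0.12 beside LPS (adjusted p = 0.0158) and 0.78 ± 0.14 without (adjusted p = 0.014).

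Dusp16, a phosphatase of JNK, had -0.75 ± 0.15 beside LPS and 0.74 ± 0.15 without, and Rbpms, an RNA-binding protein, -0.71 ± 0.11 and 0.70 ± 0.13. Bcl2a1a belongs to a family of near-identical antiapoptotic genes. Its paralog Bcl2a1b was called lower in both comparisons, and 79.2% of the 50-base words of Bcl2a1b occur in other genes, Bcl2a1d first, so the counts of this family are uncertain.

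Among the genes with the lowest interaction p, the fall beside LPS carried the difference for some. Fam102b (ENSMUSG00000040339.6, chr3:108970997-109027607, minus strand) was at 60.6, 67.95, and 48.1 CPM with PBS, 61.8, 65.6, and 56.6 with 3′SL, 459.7, 508, and 459 with LPS, and 189.8, 239, and 220.1 with LPS + 3′SL. LPS + 3′SL lay below LPS in each library, PBS and 3′SL overlapped, and the change was -1.14 ± 0.10 beside LPS (adjusted p = 0.000782) and 0.07 ± 0.10 without. Its interaction of -1.20 ± 0.14 (adjusted p = 0.00711) was called with each of 12 libraries left out in turn, had an unadjusted p of 7.92e-05 without the block, and an adjusted p of 8.79e-06 in DESeq2.

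Fpr1, the receptor of bacterial formyl peptides, had -0.77 ± 0.07 beside LPS, 0.19 ± 0.09 without, and an interaction of -0.96 ± 0.12 (adjusted p = 0.00746). Gpd2, the mitochondrial glycerol-3-phosphate dehydrogenase, was at 28.6, 30.5, and 28.6 CPM with PBS, 33.7, 36.4, and 46.3 with 3′SL, 314, 350.1, and 348 with LPS, and 174, 216, and 219.6 with LPS + 3′SL, with non-overlapping groups in both comparisons. It fell by 0.74 on the log2 scale beside LPS (adjusted p = 0.00263), had 0.40 ± 0.10 without, and an interaction of -1.13 ± 0.13 (adjusted p = 0.00711).

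For others the rise without LPS carried it. Cytip (ENSMUSG00000026832.8, chr2:58129137-58195532, minus strand), which encodes a regulator of leukocyte adhesion, was at 8.93, 10.5, and 14.2 CPM with PBS, 26.5, 34.3, and 65.4 with 3′SL, 4.59, 6.25, and 7.61 with LPS, and 3.83, 5.75, and 7.29 with LPS + 3′SL. All 3′SL libraries exceeded the PBS libraries, whereas LPS and LPS + 3′SL overlapped, and it was the gene with the lowest interaction p. The change was 1.84 ± 0.14 without LPS (adjusted p = 0.000558) and -0.14 ± 0.16 beside LPS (adjusted p = 0.751), and the interaction was -1.98 ± 0.21 (adjusted p = 0.00711).

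Spic, a transcription factor of iron-recycling macrophages, had 0.98 ± 0.10 without LPS, -0.25 ± 0.09 beside it, and -1.23 ± 0.14 for the interaction (adjusted p = 0.00711). Trim30c, a TRIM family gene, had 0.93 ± 0.11, -0.27 ± 0.09, and -1.19 ± 0.14 in the same order (adjusted p = 0.00711). For Ago3, an Argonaute protein of the microRNA pathway, only the interaction is given here, -0.85 ± 0.10 (adjusted p = 0.00711). Abca1, the cholesterol exporter and a target of LXR, was at 268, 322, and 299 CPM with PBS, 433, 473, and 494 with 3′SL, 979, 998, and 997 with LPS, and 887, 861, and 978 with LPS + 3′SL. It rose without LPS by 0.65 ± 0.08 (adjusted p = 0.00299), had -0.13 ± 0.08 beside LPS, and was the 1 gene of 14 LXR receptors and targets called for the interaction (-0.78 ± 0.11, adjusted p = 0.011). Slc2a6, the sugar transporter GLUT6, rose without LPS by 0.75 ± 0.12 (adjusted p = 0.00949), had -0.56 ± 0.10 beside LPS, under 1.5-fold, and -1.31 ± 0.16 for the interaction (adjusted p = 0.00711). Cd86, a costimulatory receptor for T cells, had an interaction of -1.0 ± 0.14 (adjusted p = 0.00946), but neither of its 3′SL changes was called.

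**Figure D3:**
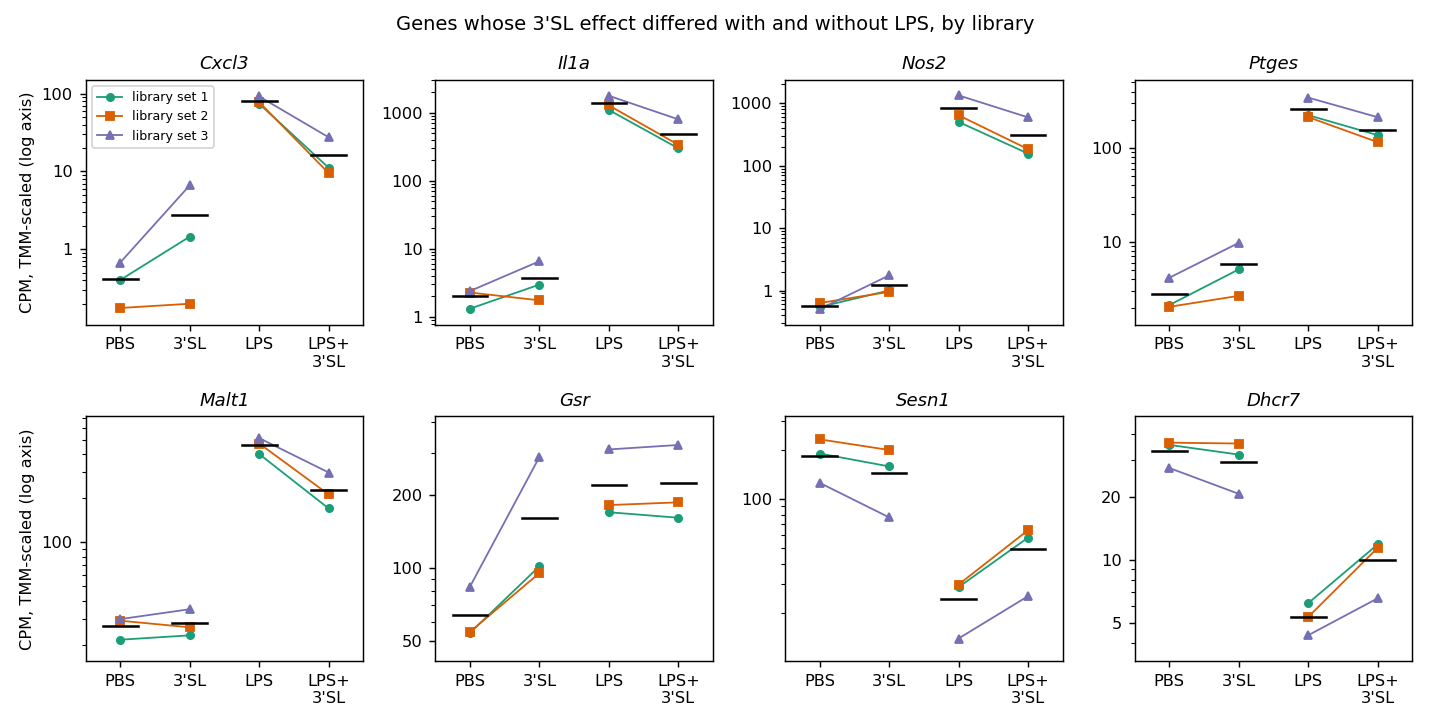
CPM by library (y axis, log scale) of 8 genes with a called interaction in the 4 conditions (x axis); symbols and colors are the 3 library sets, colored lines join libraries of a set, and black bars are condition means. For Cxcl3, Il1a, Nos2, Ptges, and Malt1 lines fall from LPS to LPS + 3′SL, for Gsr they rise from PBS to 3′SL and are nearly level beside LPS, and for Sesn1 and Dhcr7 they rise beside LPS.

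Genes of the NRF2 and oxidative stress response, which make glutathione and detoxify oxidants, were raised by 3′SL mainly in cells without LPS, although few differences between the settings passed the test. Of 16 genes, 14 were positive in both comparisons and 15 were below 0 for the interaction, 14 of them in each set. The median change was 1.04 without LPS, where 9 genes rose (1.98% of all genes did). Beside LPS it was 0.114 and 1 rose (0.685% of all genes did), Slc40a1. The median interaction was -0.763, or -0.389 without the 3′SL library of set 3. For the interaction 1 gene was called lower (1.29% of all genes were), Gsr, and DESeq2 called 0 of the 16. By set the median change without LPS was 0.753, 0.684, and 1.53.

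Gsr, glutathione reductase, was at 53.9, 54.4, and 83.6 CPM with PBS, 102, 95.2, and 288 with 3′SL, 170.0, 182, and 309 with LPS, and 161, 187, and 323 with LPS + 3′SL. All 3′SL libraries exceeded PBS, most of all in set 3, and LPS and LPS + 3′SL overlapped. It rose by 1.19 ± 0.16 without LPS (adjusted p = 0.00436), had 0.01 ± 0.16 beside LPS, and an interaction of -1.18 ± 0.22 (adjusted p = 0.0276). Gclm, the modifier subunit of the glutathione-synthesizing ligase, was at 94.1, 94.4, and 238 CPM with PBS, 318, 292, and 1299 with 3′SL, 133, 137, and 189 with LPS, and 195, 199, and 418 with LPS + 3′SL. Here 3′SL libraries exceeded their controls in both settings, with 2.00 ± 0.25 without LPS (adjusted p = 0.00329) and 0.70 ± 0.24 beside it (adjusted p = 0.18), and the interaction was not called (adjusted p = 0.0829).

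Hmox1, heme oxygenase 1, rose without LPS (1.64 ± 0.22, adjusted p = 0.00436), had 0.80 ± 0.22 beside LPS (adjusted p = 0.0893), and was not called for the interaction (-0.84 ± 0.31, adjusted p = 0.19). Slc7a11, the cystine transporter listed here with ATF4 targets, was at 6.75, 5.86, and 22.2 CPM with PBS, 31.4, 30.5, and 482 with 3′SL, 117, 138, and 239 with LPS, and 87.4, 101, and 348 with LPS + 3′SL. The 3′SL library of set 3 was far above the other 2, and beside LPS the groups overlapped. It rose without LPS by 3.28 ± 0.53 (adjusted p = 0.00949) and its interaction of -3.50 ± 0.68 was called (adjusted p = 0.0306), and was -2.26 without the 3′SL library of set 3. Of 24 ATF4 and integrated stress response genes, 21 were below 0 for the interaction with a median of -0.541. The 2 called lower (1.29% of all genes were) were Slc7a11 and Eif4ebp1, an inhibitor of translation initiation. DESeq2 called 0 of the 24 for the interaction. The median was -0.303 without the 3′SL library of set 3, and Eif4ebp1 kept its call with 1 of 12 libraries left out in turn.

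Positive interactions were fewer. A positive change beside LPS and a negative one without, which the choice by a positive interaction favours, was found for 3293 of 14308 genes. Of the 38 genes called higher, 34 had it, 3 were positive in both, and 1 was negative in both. Higher with LPS than with PBS was 1 of the 38. Sesn1 (ENSMUSG00000038332.8, chr10:41809935-41908424, plus strand), which encodes the mTORC1 inhibitor sestrin 1, was at 189.5, 231, and 125 CPM with PBS, 158, 199, and 77.1 with 3′SL, 28.9, 29.9, and 14.0 with LPS, and 57.9, 64.4, and 25.4 with LPS + 3′SL. Within each set 3′SL went with more Sesn1 beside LPS and with less without LPS, although set 3 was low throughout and the groups overlapped. The change was 1.0 ± 0.12 beside LPS (adjusted p = 0.00148) and -0.40 ± 0.11 without (adjusted p = 0.0553), and the interaction was 1.39 ± 0.16 (adjusted p = 0.00711).

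Ydjc, a homolog of carbohydrate deacetylases, was the 1 gene called in opposite directions with the higher value beside LPS. It was at 6.55, 6.70, and 5.97 CPM with PBS, 3.42, 3.86, and 3.42 with 3′SL, 0.635, 0.823, and 0.737 with LPS, and 2.47, 1.93, and 1.23 with LPS + 3′SL, with no overlap in either comparison. The change was 1.35 ± 0.27 beside LPS (adjusted p = 0.0274) and -0.84 ± 0.20 without (adjusted p = 0.0375). Its exons overlap those of Ccdc116 and Ube2l3 on the other strand, and whether the counting used the strand is not given in the sources used here. Exons of other genes named here also overlap genes on the other strand. Il1a, Il1b, Irak3, Nfkb2, Ccnd1, Gclm, Lss, Hmgcs1, Gpd2, Efr3b, and Mxi1 are among them.

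Efr3b, which anchors a lipid kinase at the plasma membrane, fell without LPS (-0.70 ± 0.13, adjusted p = 0.013) and had 0.57 ± 0.13 beside LPS (adjusted p = 0.0478, under 1.5-fold). Enpp1, an ectoenzyme that hydrolyzes nucleotides, had -0.59 ± 0.10 without LPS and 0.33 ± 0.11 beside it. Tfeb, a factor of lysosome biogenesis, rose beside LPS (0.60 ± 0.09, adjusted p = 0.0069) and had -0.19 ± 0.09 without. The interactions of the 3 were 1.27 ± 0.18 (adjusted p = 0.011), 0.92 ± 0.15 (adjusted p = 0.0153), and 0.79 ± 0.13 (adjusted p = 0.0153).

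Kcnk13, a potassium channel, rose beside LPS by 1.23 ± 0.10 (adjusted p = 0.000782) and had 0.31 ± 0.10 without, so that its interaction of 0.92 ± 0.14 (adjusted p = 0.0141) was a difference in size and not in direction.

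Rfc4, a subunit of the clamp loader of DNA replication, fell without LPS (-0.97 ± 0.16, adjusted p = 0.0103), had 0.68 ± 0.21 beside LPS, and an interaction of 1.64 ± 0.27 (adjusted p = 0.0161), and its exons overlap those of Eif4a2 on the other strand. Of 25 genes of DNA replication and mitosis, 21 were above 0 for the interaction, 19 of them in each set (76%, against 23% of all genes). The median was 0.437, from -0.373 without LPS, where 4 fell (0.86% of all genes did), and 0.126 beside LPS. The 1 gene called for the interaction was Ccnd1, cyclin D1, at 499, 540.0, and 676 CPM with PBS, 529, 502, and 435 with 3′SL, 192, 189, and 178 with LPS, and 309, 266, and 316 with LPS + 3′SL. LPS + 3′SL exceeded LPS in each library, and PBS and 3′SL overlapped (0.89 ± 0.17, adjusted p = 0.0288). Mcm2, a subunit of the replicative helicase, fell without LPS (-1.04 ± 0.23, adjusted p = 0.0298) and was not called for the interaction (1.15 ± 0.38, adjusted p = 0.156). In bulk RNA, fewer cycling cells and less RNA per cell cannot be told apart. In the fit without the block the median of this list fell below 0 when the LPS + 3′SL library of set 1 (-0.0328), the 3′SL library of set 3 (-0.0483), or the LPS library of set 3 (-0.0279) was left out.

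**Figure D4:**
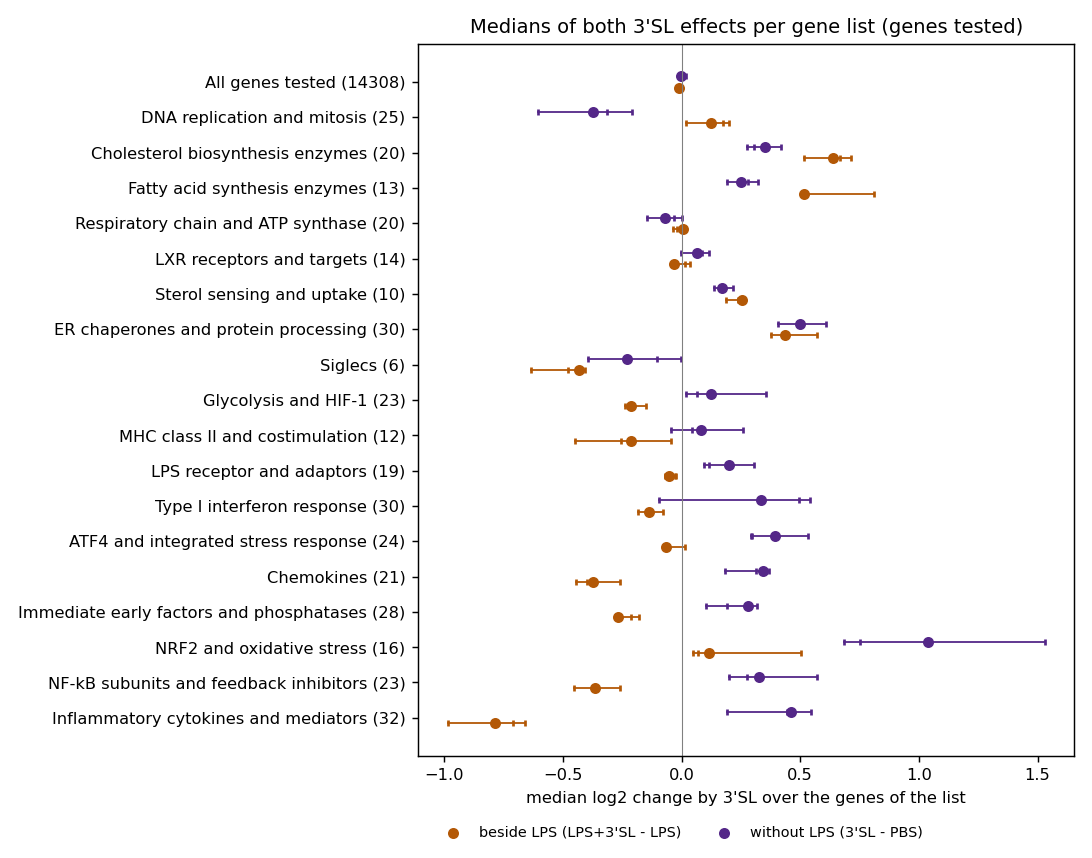
Median log2 change by 3′SL (x axis) over the genes of 18 function lists and over all genes tested (rows, with the number of genes tested), beside LPS in orange and without LPS in purple; large dots are medians from the block fit, and ticks joined by a line are the medians within each of the 3 library sets. Cytokines, chemokines, NF-κB genes, and immediate early genes lie below 0 beside LPS and above 0 without, whereas cholesterol, fatty acid, and ER lists lie above 0 in both.

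Genes of the ER responded to 3′SL alike with and without LPS. Of 30 ER chaperones and processing genes, 29 were positive in both comparisons. Beside LPS the median change was 0.436 and 11 rose (0.685% of all genes did), and without LPS it was 0.498 and 14 rose (1.98% of all genes did). The 10 genes called in both were Hspa5, Pdia4, Dnajb9, Dnajc3, Sdf2l1, Creld2, Manf, Hyou1, Sec24d, and Creb3l2, of 17 called higher in both over all genes. The median interaction was -0.0535, or from -0.0796 to 0.0448 with 1 library left out. With total counts it was 0.123, against 0.173 for all genes. In the TMM fit the 95% interval lay within 1.5-fold for 27 of 30, as for 33.0% of all genes. It did so for 18 of 20 respiratory chain genes, of which 0 were called in either comparison (edgeR, block fit).

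Hspa5, the chaperone BiP that holds the sensors of the unfolded protein response, was at 1124, 1278, and 1602 CPM with PBS, 1989.8, 2029.5, and 3207 with 3′SL, 1817, 1869, and 2602 with LPS, and 2606, 2896, and 4004 with LPS + 3′SL. In both settings all 3′SL libraries exceeded their controls. It rose by 0.59 ± 0.08 beside LPS (adjusted p = 0.00364) and by 0.83 ± 0.08 without (adjusted p = 0.00137), and the 95% interval of the interaction was -0.49 to 0.01.

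Pdia4, a protein disulfide isomerase, was at 151, 162, and 173 CPM with PBS, 268, 253, and 342 with 3′SL, 113, 105, and 103 with LPS, and 208, 191, and 240.3 with LPS + 3′SL. Again no library of the groups overlapped, and the interval of the interaction was -0.14 to 0.47. Manf, a secreted ER stress factor, rose by 0.73 ± 0.08 and 0.66 ± 0.08 beside and without LPS, with an interval of -0.16 to 0.31, and Creb3l2, a membrane-bound transcription factor of the ER, by 1.07 ± 0.10 and 0.85 ± 0.10, with -0.09 to 0.52. Exons of Manf overlap those of Rbm15b on the same strand. Ero1l, an oxidase of the ER, was the 1 gene of the list called for the interaction (-0.65 ± 0.12, adjusted p = 0.0217), with -0.24 ± 0.08 beside LPS. DESeq2 called 0 of the list for it.

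Outside the ER list, Slc40a1, the iron exporter ferroportin, was at 465, 559, and 679 CPM with PBS, 869, 1143, and 1657 with 3′SL, 63.3, 71.1, and 76.1 with LPS, and 131, 165, and 222 with LPS + 3′SL. The groups did not overlap in either comparison, and it rose by 1.26 ± 0.11 beside LPS (adjusted p = 0.000782) and 1.08 ± 0.11 without (adjusted p = 0.00137), with an interval of -0.15 to 0.52. Mxi1, an antagonist of MYC, rose by 0.81 ± 0.09 and 0.78 ± 0.09, with -0.26 to 0.31. Lrp8, a receptor of the LDL receptor family, rose by 1.57 ± 0.36 and 1.82 ± 0.31, but its interval of -1.28 to 0.78 spans more than 1.5-fold on both sides. For the 2 genes lower in both, Bcl2a1b had -0.63 ± 0.08 and -0.76 ± 0.08, and Fam20c, a kinase of secreted proteins, -0.62 ± 0.13 and -0.74 ± 0.13, with intervals of -0.13 to 0.37 and -0.28 to 0.53. Of the 19 genes called in the same direction in both comparisons, 0 were called for the interaction in the block fit or by DESeq2 and 1 had an unadjusted p under 0.05, a count that the choice by direction bears on.

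**Figure D5:**
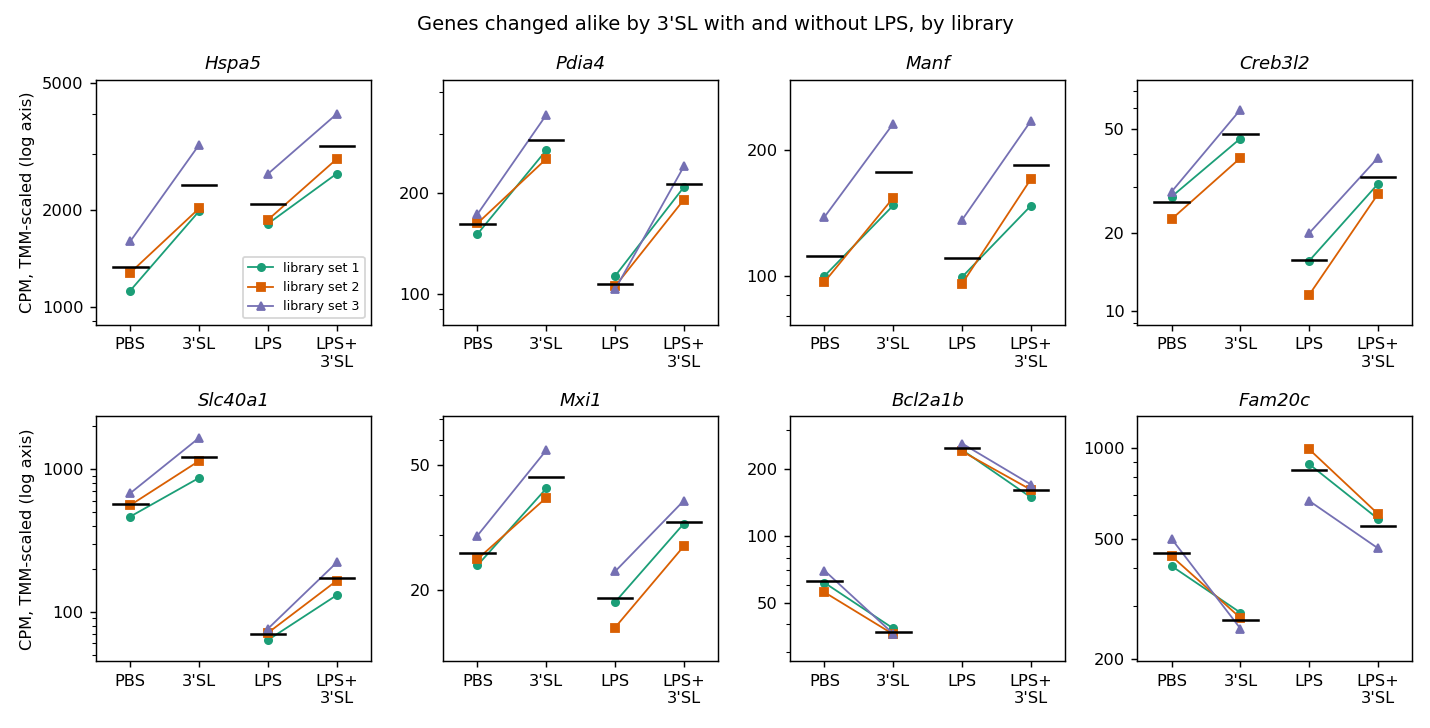
CPM by library (y axis, log scale) in the 4 conditions (x axis) of 8 genes called in the same direction by 3′SL with and without LPS; symbols and colors are the 3 library sets, colored lines join libraries of a set, and black bars are condition means. Lines rise in both pairs for Hspa5, Pdia4, Manf, Creb3l2, Slc40a1, and Mxi1 and fall in both for Bcl2a1b and Fam20c.

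Most cholesterol synthesis genes rose beside LPS, and most were not shown to differ between the settings. Of 20 enzymes, 18 were positive in both comparisons and 18 were above 0 for the interaction, 13 of them in each set (65%, against 23% of all genes). Beside LPS the median change was 0.64 and 13 rose (0.685% of all genes did), with Hmgcs1, Sqle, and Lss among them. Without LPS it was 0.35 and 0 were called in the block fit or by DESeq2, 12 at an unadjusted p under 0.05. The median interaction was 0.333, and 1 gene was called, Dhcr7, the reductase of the last step, at 35.3, 36.2, and 27.4 CPM with PBS, 31.8, 35.9, and 20.6 with 3′SL, 6.20, 5.33, and 4.36 with LPS, and 11.8, 11.4, and 6.54 with LPS + 3′SL. LPS + 3′SL exceeded LPS in each library and PBS and 3′SL overlapped, with 0.89 ± 0.14 beside LPS, -0.19 ± 0.12 without, and an interaction of 1.08 ± 0.18 (adjusted p = 0.0166). DESeq2 called 0 of the 20 enzymes for the interaction.

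Lss, lanosterol synthase, was at 41.1, 40.1, and 28.3 CPM with PBS, 62.9, 48.3, and 46.6 with 3′SL, 27.1, 23.1, and 13.7 with LPS, and 49.5, 50.9, and 27.4 with LPS + 3′SL, with no overlap in either comparison. It rose beside LPS by 1.0 ± 0.14 (adjusted p = 0.00487), had 0.55 ± 0.14 without (adjusted p = 0.0414, under 1.5-fold), and was not called for the interaction (0.46 ± 0.20, adjusted p = 0.259). Sqle, squalene epoxidase, had 0.59 ± 0.19 (adjusted p = 0.136) and Hmgcs1, HMG-CoA synthase, 0.16 ± 0.19 (adjusted p = 0.713). Most genes called in 1 setting alone were thus not shown to differ between the settings. Of 181 genes called beside LPS alone, 55 were called for the interaction, and of 380 called without LPS alone, 82 were. The 13 fatty acid synthesis genes had a median interaction of 0.294, with 9 above 0 and 0 called in the block fit or by DESeq2, 6 at an unadjusted p under 0.05. The median was 0.156, 0.499, and 0.13 without the 3′SL, LPS, or LPS + 3′SL library of set 1, and 0.179 and 0.0998 without the PBS or LPS library of set 3. The lowest adjusted p in the block fit was 0.111, for the elongase gene Elovl6.

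Interferon response genes had a median interaction of -0.481, with 30 of 30 below 0 but 0 called in the block fit or by DESeq2 and 9 at an unadjusted p under 0.05. The lowest adjusted p in the block fit was 0.097, for Oas2, an enzyme of antiviral defense. The median was -0.696, -0.0605, and -0.601 by set, so set 2 hardly showed it. It was -0.309 without the PBS library of set 1, -0.312 without the LPS + 3′SL library of set 3, and -0.152 without the 3′SL library of set 3, where the fit with no block gave 0.29. The change without LPS was 0.336 in the median, and -0.139 beside LPS. LPS receptor and adaptor genes had a median of -0.286 with 0 of 19 called in the block fit or by DESeq2 and 7 at an unadjusted p under 0.05. Without the 3′SL library of set 3 that median was -0.189. Cd14, the coreceptor, rose without LPS (0.81 ± 0.13, adjusted p = 0.00945), had 0.13 ± 0.13 beside LPS, and was not called for the interaction (adjusted p = 0.0866). Of 6 Siglecs, the sialic acid–binding lectins, 0 were called in the block fit or by DESeq2 and 2 had an unadjusted p under 0.05, and Siglece had -1.20 ± 0.30 (adjusted p = 0.0692). The median of the 6 was -0.157 and ranged from -0.724 to -0.0225 with 1 library left out.

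The other lists had at most 1 call each. Respiratory chain genes had a median interaction of 0.0447 with 0 of 20 called (0 at an unadjusted p under 0.05), sterol sensing and uptake genes 0.0381 with 0 of 10 (1 at an unadjusted p under 0.05), and LXR receptors and targets 0.0441 with 1 of 14. With 1 library left out these ranged from 0.0222 to 0.0868, -0.00134 to 0.145, and -0.0476 to 0.0758. Glycolysis and HIF-1 genes had -0.224 with 0 of 23 called (6 at an unadjusted p under 0.05), and MHC class II and costimulation genes -0.267 with 1 of 12 called, Cd86, and its median was 0.00166 with total counts and no block. Without the 3′SL library of set 3 the medians were -0.0936 and -0.0947, and the MHC class II median was -0.173 and -0.457 without the LPS libraries of sets 1 and 3. Marker genes had medians of -0.124 for 10 macrophage markers (0.0542 with total counts), -0.315 for 11 stromal markers tested, and 0.208 for 10 neutrophil markers, with 0 called in each list (2, 2, and 0 at an unadjusted p under 0.05). In these lists Abca1 was the 1 gene that DESeq2 called. The neutrophil median was -0.189, -0.148, and 0.96 by set and -0.171 without the 3′SL library of set 3, and the neutrophil sum in set 3 was 552 CPM with PBS and 304 with 3′SL. With 1 library left out the macrophage median ranged from -0.13 to -0.0252 and the stromal one from -0.684 to -0.223. The stromal sum was 45.0 to 986 CPM for PBS, 52.7 to 1076 for 3′SL, 98.7 to 1161 for LPS, and 70.1 to 1150 for LPS + 3′SL. Each upper end is the library of set 1, and the libraries of sets 2 and 3 were at 45.0 to 212 CPM. The part of cells with these markers in the results was not tested.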

How the data were processed

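BMDM RNA-Seq libraries, 3 for each condition, were analysed. The authors deposited whole-number read counts per gene, not normalized, 1 table per library, from stranded TruSeq libraries of polyA-enriched RNA. The submitters' processing notes name FastQC, Trimmomatic, STAR, HTSeq, and DESeq2; versions, genome build, and strand setting are not given in the sources used here. Rows that name no gene (33.2% to 37.1% of reads, multiply aligned reads included) were left out. Identifiers were matched without version to GENCODE M21 (GRCm38), naming 42462 of 43626.

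Counts were fitted in edgeR 4.0.16 (R 4.3.3; filterByExpr, TMM, quasi-likelihood F-test, Benjamini-Hochberg adjustment) with 1 mean per condition, and again with the 3 library sets as a block. Same-set residuals correlated by more than 0.1 in every pair, so block values are printed. DESeq2 1.42.0, sva 3.50.0, other scalings and filters, and left-out libraries were alternatives. The biological coefficient of variation was 0.31 without and 0.133 with the block. Replicates differed beyond sampling noise (chi-square per gene at least 15.6). Within-set values are log2 CPM with 0.5 counts added.

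The 26 gene lists, the sets, and the question were chosen with earlier results of these data known. Genes were named by rule: per direction the 8 lowest interaction p-values in the block fit (at least 5 CPM in 1 condition, at least 1.5-fold, same sign in 3 sets), per pattern of both 3′SL effects the 4 lowest, the genes the paper names, and 3 per list; further genes were named after their values were seen. DESeq2 values are without the block. No set test was run. 1 gene that the rule selects is not reported here.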

Additional observations from a re-analysis of the deposited data

Results flagged for a closer look

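For 19 genes the change by 3′SL differed between cells with and without LPS by the interaction test of the block fit. The threshold was an adjusted p under 0.05 and 1.5-fold in edgeR. The same sign of the interaction in the 3 library sets was a condition for genes named by lowest p. All 184 genes called lower and 38 called higher had it, so it adds no support to single calls. None of the 19 was called by edgeR without the block. Of the 19, DESeq2 without it called Cytip, Fam102b, Gpd2, Slc2a6, Efr3b, Ydjc, Cxcl1, Ptgs2, and Saa3.

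Negative interactions, a lower 3′SL effect beside LPS, were those of Cytip with -1.98, Spic with -1.23, Fam102b with -1.20, Trim30c with -1.19, Gpd2 with -1.13, Slc2a6 with -1.31, Ago3 with -0.85, and Fpr1 with -0.96 on the log2 scale. These 8 were called with each of the 12 libraries left out in turn. The inflammatory genes Cxcl1 (-2.70), Cxcl3 (-5.09), Ptgs2 (-3.47), and Saa3 (-2.47) were called with 2, 8, 3, and 8 of 12 libraries left out in turn.

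Positive interactions were those of Sesn1 with 1.39, Efr3b with 1.27, Kcnk13 with 0.92, Ydjc with 2.20, Enpp1 with 0.92, Tfeb with 0.79, and Rfc4 with 1.64. Sesn1 was called with each of the 12 libraries left out in turn.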

How the results depend on the processing

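Numbers of called genes are given for the interaction, 3′SL beside LPS, and 3′SL without LPS, in that order. Without the block edgeR called 0, 0, and 0, and 0, 1, and 0 with DESeq2 size factors or with total counts, 0, 2, and 0 among genes with at least 1 count, and 567, 402, and 620 by unadjusted p and fold. DESeq2 called 44, 113, and 88. With the replicate block the counts were 222, 207, and 406, in DESeq2 506, 284, and 648, with total counts 136, 218, and 365, with DESeq2 size factors 223, 201, and 398, and without the fold minimum 259, 348, and 841. In the block without library set 1 they were 1, 1, and 2, without set 2 0, 0, and 3, and without set 3 457, 371, and 323. A filter of 10 counts in every library, 1 surrogate variable, and no fold minimum gave 0, 0, and 0 without the block. The cause of these differences was not tested, except that leaving out a set or library leaves fewer samples.

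Leaving out 1 library at a time gave 0 to 0, 0 to 8, and 0 to 0 calls without the block, and 24 to 333, 58 to 288, and 111 to 526 with it. For 3′SL beside LPS under the block, calls fell by over 1.5 times without the LPS libraries of sets 1 and 2 (114 and 67) and the LPS + 3′SL libraries of sets 1 and 2 (58 and 70). For 3′SL without LPS they did so without the PBS libraries of sets 1, 2, and 3 (239, 195, and 111), the 3′SL library of set 3 (146), and the LPS + 3′SL library of set 1 (268).

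With 1 library left out, in the fit without or with the replicate block, the sign of the interaction turned for 11 of 85 genes followed, 0 of them called for it, and that of the median for 12 of 21 lists. In the block fit alone it turned for 5 genes and 4 lists. Over both fits the ranges of those genes included Manf from -0.143 to 0.344, Mxi1 from -0.121 to 0.212, Fam20c from -0.0806 to 0.237, Slc40a1 from -0.0284 to 0.508, Scd2 (a fatty acid desaturase) from -0.0878 to 1.42, Lrp8 from -0.691 to 0.607, Hmox1 from -1.45 to 0.125, Hspa5 from -0.458 to 0.0414, and Oas2 from -1.16 to 0.18. Nr1h2 and Nr1h3, the LXR receptors, turned as well. Medians ranged from -1.13 to 0.29 for Type I interferon response, from -0.0132 to 0.145 for Sterol sensing and uptake, from -0.0483 to 0.824 for DNA replication and mitosis, from -1.31 to 0.245 for MHC class II and costimulation, from -0.49 to 0.0626 for Glycolysis and HIF-1, and from -0.256 to 0.0824 for macrophage markers (Markers: macrophage). The others that turned were ER chaperones and protein processing (-0.129 to 0.109), LXR receptors and targets (-0.169 to 0.137), Respiratory chain and ATP synthase (-0.0277 to 0.103), Siglecs (-0.724 to 0.169), and stromal (-2.34 to 1.69) and neutrophil markers (-0.441 to 1.08). In the block fit no left-out library moved the medians of cytokines, chemokines, NF-κB, cholesterol, or DNA replication genes by over 1.5 times. With total counts the median was 0.00166 for MHC class II and costimulation and 0.0576 for macrophage markers, and 0.0542 for the latter under the block. Under the block with total counts it was also above 0 for ER chaperones (0.123) and Siglecs (0.0103), against 0.173 for all genes.

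Depth limits genes at few reads without LPS, such as Il6 and Cxcl3. Of the interactions named here, none was called by edgeR without the block, so the edgeR calls rest on the sets, which the labels do not declare.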
